A study of Mus musculus with 6 samples.

Results

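The genes described here act in DNA replication and mitosis. They were listed as 38 gene symbols for their roles in the cell cycle. The rule that picks them uses no measured value, although the list was written with earlier results of these data known. Of these, 36 had a row in the table of 14865 genes. Expression of Ccnb1 and Bub1 was not analysed here, and only their promoters were searched. RNA from dissected cochlear ducts of C57BL/6 mice at postnatal day 8 (P8) was measured by polyA RNA-seq in 6 libraries, 3 of each genotype, to ask how the loss of 1 copy of Gfi1 changes cochlear expression. The Gfi1+/+ libraries each held RNA from 2 cochleae of 1 mouse. The Gfi1cre/+ libraries each held RNA from 6 cochleae of 3 mice that carried 1 knock-in allele. In it the Cre recombinase sequence stands in for most of the Gfi1 coding exons, so that Cre follows the Gfi1 promoter. The authors saw recombination of a reporter in hair cells and in immune cells of younger mice. For the immune cells, they state that it need not mean expression when the tissue was taken. The libraries are separate samples, but the pools differ in the number of mice, so the spread within a genotype is not measured on the same footing.

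Cells that divide copy their DNA in S phase with a helicase of MCM proteins, the sliding clamp PCNA and a supply of nucleotides, and then separate the copies in mitosis under Cdk1, its cyclins and the Aurora and Polo kinases. Most of these transcripts are made mainly in cycling cells, so they are low in tissues whose cells have left the cycle. Hair cells and supporting cells of the mouse cochlea stop dividing before birth, while blood, bone, glial and connective tissue cells around the duct can still divide at this age. In bulk tissue, fewer cycling cells and less of these RNAs per cell cannot be told apart.

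Promoters of this gene class are known for a CCAAT box, for the cell cycle homology region (CHR, core letters TTTGAA) in mitotic genes and for E2F sites in replication genes. RefSeq promoter windows (GRCm38.p6, 250 bases before to 50 after each start) were matched by symbol for 32 of the 38 genes, with 35 windows. Both strands were searched. CCAAT was in 29 windows (82.9%) against 36.8% of the windows of tested genes and 37.4% of all 32851 windows. TTTGAA was in 19 windows (54.3%) against 11.5% and 17.9%, and at least 1 of the E2F-type strings TTTCGCGC, TTTGGCGC and TTTCCCGC, which can overlap each other, was in 7 windows (20%) against 3.06% and 1.84%. The roles differed in these letters. Of the 19 windows of the cyclin, kinase and kinetochore genes, 14 held TTTGAA and 1, that of Cdk1, an E2F-type string. Of the 11 windows of the replication and nucleotide genes, 1 held TTTGAA and 4 an E2F-type string. The 250 bases before the start are shown for the 3 genes with the smallest p-values between genotypes. Those of Ccnb2 and Cdk1, from the cyclin group, are also shown. They run 5′ to 3′ on the strand of the gene, and capitals mark the CCAAT box, the CHR letters and the E2F-type strings on either strand. The windows are chr7:135716380-135716629 (minus strand) for Mki67, chr8:75109259-75109508 (plus strand) for Mcm5, chr12:24708004-24708253 (plus strand) for Rrm2, chr9:70421555-70421804 (minus strand) for Ccnb2 and chr10:69352913-69353162 (minus strand) for Cdk1. These matches are a description of letters and do not show that a factor was bound.
Mki67: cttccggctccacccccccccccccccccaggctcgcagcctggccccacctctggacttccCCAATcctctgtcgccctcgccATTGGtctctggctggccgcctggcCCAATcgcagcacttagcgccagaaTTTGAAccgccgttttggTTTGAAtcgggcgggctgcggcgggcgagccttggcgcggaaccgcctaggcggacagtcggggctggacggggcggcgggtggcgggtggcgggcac
Mcm5: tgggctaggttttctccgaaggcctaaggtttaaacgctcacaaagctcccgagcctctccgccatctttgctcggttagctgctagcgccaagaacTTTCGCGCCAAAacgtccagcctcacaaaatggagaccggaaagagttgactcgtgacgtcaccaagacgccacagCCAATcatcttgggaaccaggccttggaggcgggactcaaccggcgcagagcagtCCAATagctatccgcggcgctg
Rrm2: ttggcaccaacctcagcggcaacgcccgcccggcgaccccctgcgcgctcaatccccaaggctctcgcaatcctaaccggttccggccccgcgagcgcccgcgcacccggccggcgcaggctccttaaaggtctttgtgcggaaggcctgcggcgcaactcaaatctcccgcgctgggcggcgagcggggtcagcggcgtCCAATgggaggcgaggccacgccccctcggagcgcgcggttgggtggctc
Ccnb2: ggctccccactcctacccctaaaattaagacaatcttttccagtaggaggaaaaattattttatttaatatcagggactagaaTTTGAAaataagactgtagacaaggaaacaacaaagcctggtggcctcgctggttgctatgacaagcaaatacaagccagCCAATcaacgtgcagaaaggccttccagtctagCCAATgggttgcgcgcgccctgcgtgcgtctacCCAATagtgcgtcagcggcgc
Cdk1: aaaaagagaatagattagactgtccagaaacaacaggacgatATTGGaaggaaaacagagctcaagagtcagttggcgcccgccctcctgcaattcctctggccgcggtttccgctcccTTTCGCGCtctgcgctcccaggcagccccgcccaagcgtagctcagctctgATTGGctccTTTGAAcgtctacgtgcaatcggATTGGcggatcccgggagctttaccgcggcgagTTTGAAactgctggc
The windows of Mki67, Ccnb2 and Cdk1 held TTTGAA beside CCAAT boxes, and that of Cdk1 also held the E2F-type string TTTCGCGC. Mcm5 held E2F-type strings on both strands that overlap, and Rrm2 held a single CCAAT in these bases.

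Depth ran from 13603908 to 19359753 reads on genes per library, recovered from the table, so that a count of 3 reads was worth 2.61 to 3.70 normalized reads. A normalized read is a read on a gene divided by a factor for the library. Gfi1 itself stood at 147, 160.2 and 152 normalized reads in Gfi1+/+ libraries 1, 2 and 3 and at 136, 129.6 and 139 in Gfi1cre/+ libraries 1, 2 and 3. All Gfi1cre/+ libraries were below all Gfi1+/+ libraries, with a log2 fold change of -0.18 ± 0.098 (SE, limma, adjusted p = 0.999). The value of the whole gene does not separate the alleles. Ddx3y, a Y-linked gene, was at 0 in each Gfi1+/+ library and between 232 and 485 in the Gfi1cre/+ libraries, so sex and genotype cannot be told apart. Of 8 hair cell markers 7 were in the table, with a summed level of 8997 to 10176 in Gfi1+/+ and 8763 to 9097 in Gfi1cre/+, and the 6 markers of the cochlear duct epithelium were all present.

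Per kilobase of exon, the division genes were low in this tissue, and the MCM genes and Pcna had the highest median of the role groups. Levels between genes were compared as normalized reads per kilobase of exon. The length was the union of all annotated exons of a gene, such as 11012 bases for Rrm1, 6089 for Tyms and 2400 for Pcna. It can exceed the length of the transcripts present, so the order of genes and groups depends on it. The median of the 36 genes was 27.1, against 111 for the 14388 tested genes with a length, and 33 of the 36 lay below that median. The MCM helicase genes and Pcna had a median level of 87.6 per kilobase, the cyclin group 27.1, the mitotic kinases 25.6 and the kinetochore and spindle genes 16.5. The nucleotide supply genes had a median of 33.4 and the chromosome structure genes 31.7. Single genes crossed these groups, with Cdc20 of the cyclin group at 87.4 and Ncapd2 of chromosome structure at 142. Pcna, the sliding clamp of DNA polymerase, was the most abundant at 181, and Cenpf, a kinetochore protein, the least at 4.10. The 9 CDK inhibitor and pocket protein genes, which hold cells out of the cycle, ranged from 23.7 to 4214 on the same scale with a median of 125. The most abundant of them were Cdkn1c at 4214 and Cdkn1a at 1427 normalized reads per kilobase, and Cdkn1b stood at 515. Cdk4, the kinase of G1, stood at 1021.

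**Figure D1:**
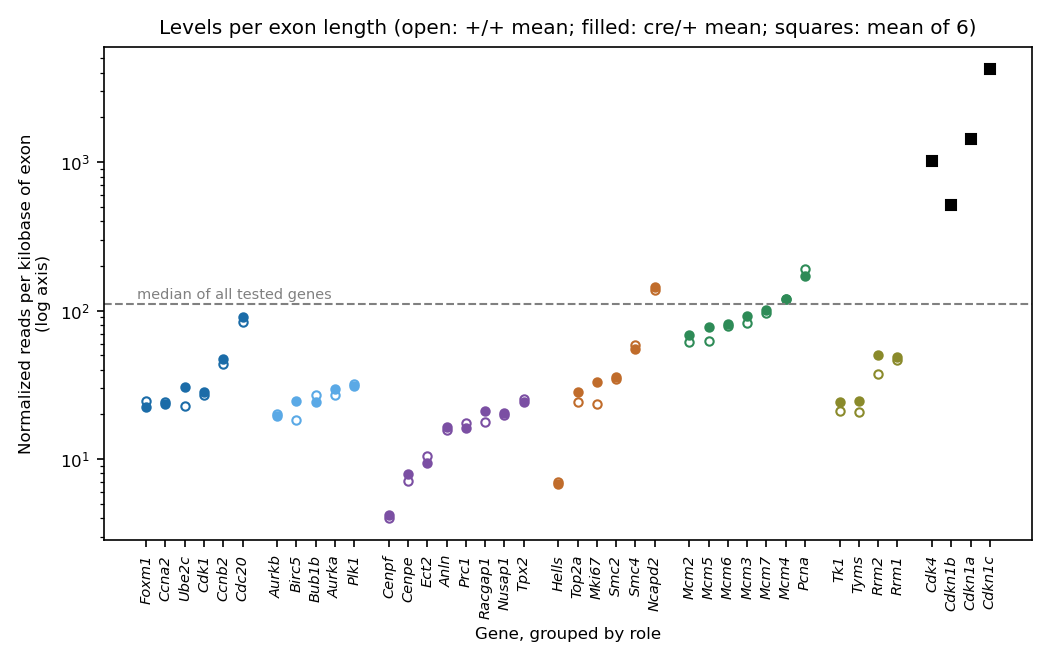
Level of each gene in normalized reads per kilobase of exon on a log axis, with open circles for the mean of 3 Gfi1+/+ libraries, filled circles for the mean of 3 Gfi1cre/+ libraries and squares for the mean of all 6 libraries for 4 cell cycle regulators outside the list. The 36 genes lie between 4.10 and 181, and the dashed line at 111 is the median of tested genes.

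Between the genotypes, no division gene passed adjusted p 0.05, and the differences were small. The test was limma on log2(normalized reads + 1), fitted to 14455 genes and adjusted over all of them, where 0.0277% of tested genes passed. All 36 genes passed the filter on low values, and their adjusted p was 0.999 in each case. At unadjusted p under 0.05, 3 of the 36 were higher in Gfi1cre/+ (Mki67, Mcm5 and Rrm2) and 0 were lower, where 1.02% of tested genes were higher, 2.02% lower and 3.04% either. By sign alone, 24 genes were higher and 12 lower in Gfi1cre/+, against 49.9% higher among tested genes. The median log2 fold change was 0.08, against -0.00012 over tested genes, and single values ran from -0.16 (Bub1b) to 0.48 (Mki67). The 95% intervals of 35 genes lay within 1 log2 unit of 0 in either direction, and those of 21 within 0.5. The genotypes did not overlap for 4 genes, all higher in Gfi1cre/+ (Mki67, Mcm5, Tyms and Tk1), where 3.45% of tested genes were higher and 4.07% lower without overlap. Single libraries moved these counts. With 2 libraries against 3, groups fail to overlap more often, so each count stands beside the share of tested genes in the same fit. Without Gfi1+/+ replicate 2, 8 of 36 genes passed unadjusted p 0.05 (3.78% of tested genes) and 15 did not overlap (16%), all higher in Gfi1cre/+. Without Gfi1cre/+ replicate 1, 1 gene passed, higher (2.17%), and 8 did not overlap, 6 higher and 2 lower (15.9%). Without Gfi1+/+ replicate 3, 2 genes passed, 1 higher and 1 lower (16.2%), and 7 did not overlap, 5 higher and 2 lower (34.5%). Without Gfi1cre/+ replicate 3, 7 did not overlap, 6 higher and 1 lower (13.5%). Without Gfi1+/+ replicate 1, 4 genes passed, 3 higher and 1 lower (2.1%).

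**Figure D2:**
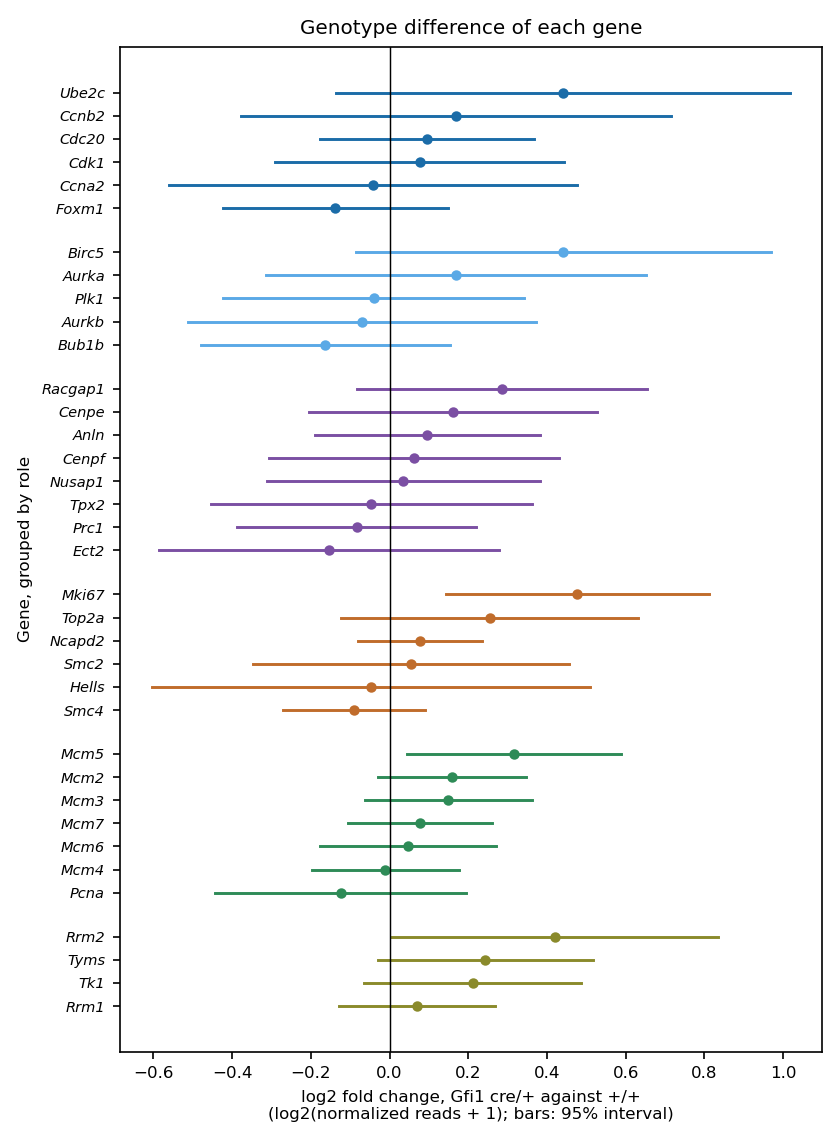
Log2 fold change of each gene in Gfi1cre/+ against Gfi1+/+ on log2(normalized reads + 1), with points for the limma estimate from 3 libraries per genotype and bars for the 95% interval, grouped by role. The values run from -0.16 to 0.48, and the bars of Mki67, Mcm5 and Rrm2 lie above 0 before adjustment.

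Among genes of chromosome structure, the largest difference was that of Mki67, which encodes Ki-67, the coat protein of mitotic chromosomes used to mark cycling cells (ENSMUSG00000031004, chr7:135689784-135716361, minus strand, GRCm38). Mki67 had 215, 277 and 218 normalized reads in Gfi1+/+ libraries 1, 2 and 3 and 406, 285 and 305 in Gfi1cre/+ libraries 1, 2 and 3. All Gfi1cre/+ libraries were above all Gfi1+/+ libraries, and Gfi1cre/+ library 1 stood apart. The means were 237 ± 35.2 and 332 ± 64.7 (SD, n = 3 each). The log2 fold change was 0.48 ± 0.148 (SE, 95% interval 0.14 to 0.81, limma, unadjusted p = 0.0104, adjusted p = 0.999). An exact two-sided permutation test gave p = 0.1, the smallest that 3 against 3 libraries allow. Without Gfi1cre/+ library 1 the log2 fold change was 0.32. With the level of Slc4a1, a gene of red cell precursors, as a covariate, the estimate was 0.07 and did not pass unadjusted p 0.05. Slc4a1 itself separated the genotypes, so that fit cannot tell its level well from the genotype. Top2a, the topoisomerase that untangles copied DNA, had 194, 291 and 175 in Gfi1+/+ and 255, 249.4 and 264 in Gfi1cre/+. The Gfi1cre/+ values lay between Gfi1+/+ library 2 and the other Gfi1+/+ libraries, so the genotypes overlapped. Its log2 fold change was 0.25 ± 0.167 (SE, limma, adjusted p = 0.999). The condensin genes Smc2, Smc4 and Ncapd2, which compact chromosomes, had log2 fold changes of 0.05, -0.09 and 0.08, and Hells, a chromatin remodeller, -0.05.

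**Figure D3:**
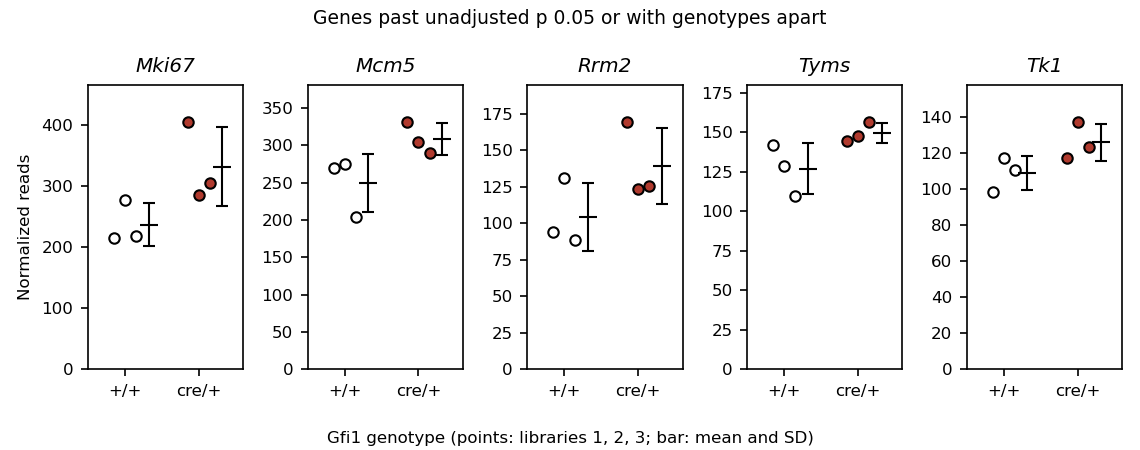
Normalized reads of the 5 genes that passed unadjusted p 0.05 or did not overlap, with points for libraries 1, 2 and 3 of each genotype and a bar for the mean and SD (n = 3), each axis starting at 0. Mki67 runs from 215 to 277 in Gfi1+/+ and from 285 to 406 in Gfi1cre/+, and Rrm2 overlaps.

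Genes of replication licensing and the clamp had small differences, with Mcm5 the largest of them. Mcm5, a subunit of the MCM helicase (ENSMUSG00000005410, chr8:75109569-75128439, plus strand, GRCm38), had 269, 274 and 205 normalized reads in Gfi1+/+ libraries and 332, 304 and 289.7 in Gfi1cre/+ libraries. All Gfi1cre/+ libraries were above all Gfi1+/+ libraries, and Gfi1+/+ library 3 was the lowest. The log2 fold change was 0.32 ± 0.120 (SE, 95% interval 0.04 to 0.59, limma, unadjusted p = 0.0274, adjusted p = 0.999). It ran from 0.18 to 0.39 with a library left out, and did not pass unadjusted p 0.05 without Gfi1+/+ library 3, Gfi1cre/+ library 1 or Gfi1cre/+ library 2. The other MCM genes had log2 fold changes from -0.01 (Mcm4) to 0.16 (Mcm2). Pcna had 494, 526 and 350.2 in Gfi1+/+ and 439.5, 381 and 419 in Gfi1cre/+. The Gfi1cre/+ libraries lay inside the range of Gfi1+/+, whose library 3 was the lowest of the 6. Its log2 fold change was -0.12 ± 0.141 (SE, limma, adjusted p = 0.999).

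Genes of nucleotide supply were all higher in Gfi1cre/+ by sign, with a median log2 fold change of 0.23 over 4 genes, except that Rrm1 turned to -0.0157 without Gfi1+/+ library 3. Rrm2, the regulated subunit of ribonucleotide reductase (ENSMUSG00000020649, chr12:24708241-24714146, plus strand, GRCm38), had 93.8, 131 and 88.6 normalized reads in Gfi1+/+ and 169.7, 123 and 125 in Gfi1cre/+. Gfi1cre/+ library 1 was highest, and Gfi1+/+ library 2 was above the other Gfi1cre/+ libraries. The log2 fold change was 0.42 ± 0.183 (SE, 95% interval 0.0063 to 0.83, limma, unadjusted p = 0.0473, adjusted p = 0.999). It ran from 0.27 to 0.59 with a library left out, and did not pass unadjusted p 0.05 without Gfi1+/+ library 1 or 3 or Gfi1cre/+ library 1 or 3. With Slc4a1 as a covariate it was 0.066, with the same limit as for Mki67. Tyms, which makes thymidylate, had 142, 129 and 109.7 in Gfi1+/+ and 144, 147 and 157 in Gfi1cre/+. Tk1, thymidine kinase, had 98.8, 117 and 111 in Gfi1+/+ and 117.5, 138 and 124 in Gfi1cre/+. For both genes the genotypes were apart by little, and the log2 fold changes were 0.24 ± 0.121 and 0.21 ± 0.122 (SE, limma, adjusted p = 0.999 each). Rrm1, the constant subunit of the reductase, had a log2 fold change of 0.07.

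The cyclins, Cdk1 and their partners did not separate the genotypes. Ccnb2, a mitotic cyclin, had 75.3, 81.7 and 43.3 normalized reads in Gfi1+/+ and 76.6, 77.2 and 64.2 in Gfi1cre/+. Cdk1, the kinase that starts mitosis, had 132, 159 and 109 in Gfi1+/+ and 153, 118 and 148 in Gfi1cre/+. In both genes Gfi1+/+ library 3 was the lowest and library 2 the highest, so the Gfi1cre/+ values fell inside the Gfi1+/+ range. Ube2c, the ubiquitin enzyme of the anaphase-promoting complex, had 46.9, 83.8 and 47.5 in Gfi1+/+ and 95.7, 63.9 and 77.4 in Gfi1cre/+. Its log2 fold change was 0.44 ± 0.255 (SE, 95% interval -0.14 to 1.02, limma, adjusted p = 0.999), the widest upper bound of the list. Ccna2, the cyclin of S phase and early mitosis, had a log2 fold change of -0.04, Cdc20, an activator of the same complex, 0.10, and Foxm1, the transcription factor of G2 genes, -0.14.

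Mitotic kinases and spindle genes scattered around 0. Birc5, the survivin subunit of the chromosomal passenger complex, had 53.1, 82.7 and 50.6 normalized reads in Gfi1+/+ and 105, 70.1 and 76.4 in Gfi1cre/+. Gfi1+/+ library 2 again stood among the Gfi1cre/+ values, and the log2 fold change was 0.44 ± 0.233 (SE, limma, adjusted p = 0.999). Bub1b, a spindle checkpoint kinase, had 125, 107 and 115 in Gfi1+/+ and 94, 94.98 and 122 in Gfi1cre/+. The groups overlapped, with the lowest log2 fold change of the list at -0.16 ± 0.140 (SE, limma, adjusted p = 0.999). The kinases Plk1, Aurka and Aurkb had log2 fold changes of -0.04, 0.17 and -0.07. Racgap1, which positions the cleavage furrow, had the largest value of the kinetochore, spindle and cytokinesis group at 0.29 ± 0.163 (SE, limma, adjusted p = 0.999). The other 7 genes of that group, Cenpe, Cenpf, Nusap1, Tpx2, Prc1, Anln and Ect2, ran from -0.15 (Ect2) to 0.16 (Cenpe).

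The division genes shifted between libraries of the same genotype, most of all between Gfi1+/+ libraries 2 and 3. Most of the genes moved the same way between those libraries. Averaged over the 36 genes, the distance of a library from the 6-library mean of each gene was -0.07, 0.14 and -0.22 on the log2 scale in Gfi1+/+ libraries 1, 2 and 3 and 0.14, 0.02 and -0.0097 in Gfi1cre/+ libraries 1, 2 and 3. Gfi1+/+ library 3 was the lowest, and Gfi1+/+ library 2 and Gfi1cre/+ library 1 were highest at nearly the same value. Their order turned with the scaling, since Gfi1cre/+ library 1 was above Gfi1+/+ library 2 under median centring (0.1406 and 0.1397), TMM scaling (0.1413 and 0.1403) and quantile normalization (0.152 and 0.132). Library 3 of Gfi1+/+ was the lowest of the 6 for 22 of 36 genes (61.1%), against 22.2% of tested genes. Library 2 of Gfi1+/+ was the highest for 16 genes (44.4%, against 17.3%) and library 1 of Gfi1cre/+ for 8 (22.2%, against 11.05%). Between Gfi1+/+ libraries 2 and 3, 32 of 36 genes were higher in library 2, with a median ratio of 1.26, against 49.96% and a median ratio of 0.99997 over tested genes. The median SD within Gfi1+/+ was 0.200 on the log2 scale, where counting reads alone gives 0.133 for these genes, and within Gfi1cre/+ 0.136, where counting gives 0.116. Over tested genes the median SD was also larger within Gfi1+/+, at 0.119 against 0.074 within Gfi1cre/+. The SD was larger within Gfi1+/+ for 28 of the 36 genes and for 71.2% of tested genes. Reads per gene and library ran from 38 to 1104, so part of the scatter of the 36 genes is counting error. The swing between Gfi1+/+ libraries 2 and 3 was widest for the cyclin group, with mean deviations of 0.22 and -0.31, and narrowest for the replication licensing genes, with 0.04 and -0.18.

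**Figure D4:**
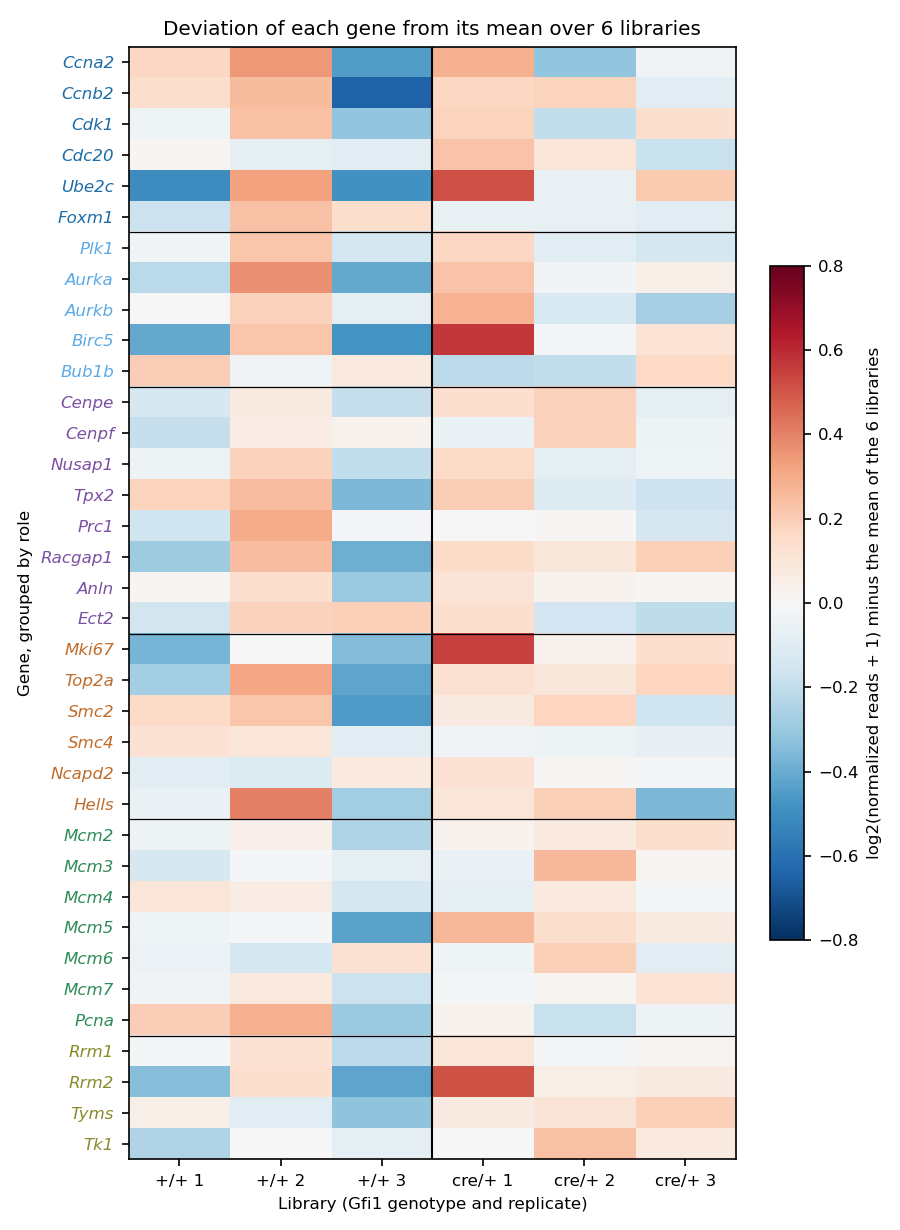
Deviation of log2(normalized reads + 1) from its mean over the 6 libraries for each of the 36 genes (rows, grouped by role) in each library (columns, 3 Gfi1+/+ left of the line and 3 Gfi1cre/+ right of it), red above and blue below the mean. Gfi1+/+ library 3 is the lowest for 22 genes and Gfi1+/+ library 2 the highest for 16.

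Markers of other cell types were compared with these shifts. Of 23 erythroid markers 21 were tested, and all 21 were higher in Gfi1cre/+ by sign, against 49.9% of tested genes. An unadjusted limma p under 0.05 was found for 12, where 1.02% of tested genes were higher and 2.02% lower. The genotypes did not overlap for 8 (3.45% of tested genes, higher). The median log2 fold change was 0.64. The mean deviation of the list was -1.05, -0.50 and -0.33 in Gfi1+/+ libraries 1, 2 and 3 and 1.46, 0.36 and 0.05 in Gfi1cre/+ libraries 1, 2 and 3. The summed level was 32094 to 46681 in Gfi1+/+ and 41154 to 69116 in Gfi1cre/+. Slc4a1, the anion exchanger of red cells, had 30.9, 50.3 and 81.2 normalized reads in Gfi1+/+ and 851, 178 and 168 in Gfi1cre/+. Within Gfi1cre/+, library 1 had the highest Slc4a1, and 20 of 36 division genes were above both other Gfi1cre/+ libraries there, against 34.2% of tested genes. Within Gfi1+/+ the order differed, since library 3 had the highest Slc4a1 and the lowest division genes. No correlation over the 6 libraries is given for Slc4a1, because the genotypes fall into separate ranges. Hemgn, another erythroid gene, was at 0 in Gfi1+/+ library 1 and at 2.09 and 2.11 in the others, which lies under the level of 3 reads, and at 81.8, 13.3 and 18.9 in Gfi1cre/+. With Slc4a1 as a covariate, 0 division genes had an unadjusted limma p under 0.05, against 1.58% of tested genes. Since Slc4a1 separated the genotypes, this fit cannot tell its level well from the genotype. In that fit the log2 fold changes of Mki67 and Rrm2 were 0.07 and 0.07, while those of Mcm5 and Tyms were 0.33 and 0.45, and the part of erythroid cells in the result was not tested further. Of 12 granulocyte precursor markers 6 were tested, 4 of them higher at unadjusted p 0.05, with a summed level of 61.7 to 271 in Gfi1+/+ and 236 to 460.4 in Gfi1cre/+. All 12 bone markers were tested, 3 of them higher at unadjusted p 0.05, with summed levels of 117232 to 164983 and 142112 to 154547. At unadjusted p 0.05, 4 of 7 neuron markers and 1 of 7 hair cell markers (Pvalb) were lower, though no neuron marker separated the genotypes and Gfi1+/+ library 1 stood apart for that list (mean deviation 1.80 on the log2 scale, against 0.23 and -0.47 in the other Gfi1+/+ libraries). At the same threshold 2 of 5 endothelium markers (Tek and Pecam1) were higher, and 0 passed in either direction among the tested markers of cartilage (5), macrophages (9), Schwann cells (6), supporting cells (7) and duct epithelium (6).

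Ibsp, the bone sialoprotein gene, varied mostly within Gfi1+/+. It had 12340, 6090 and 24660 normalized reads in Gfi1+/+ libraries and 16775, 15281 and 18658 in Gfi1cre/+ libraries. The division genes ran the other way in the extreme libraries, since Gfi1+/+ library 2 was lowest for Ibsp and library 3 highest. Over the 6 libraries, Pearson's r of a division gene with Ibsp was below 0 for 30 of 36 genes, against 51.1% of tested genes. The median r was -0.477, against -0.0228 over tested genes, and the median Spearman's rho was -0.371. In 36 exact two-sided permutation tests, Smc2 had rho = -0.943 (p = 0.0167) and r = -0.771 (p = 0.0778), Smc4 had r = -0.831 (p = 0.0167) and rho = -0.886 (p = 0.0333), and Pcna had r = -0.858 (p = 0.0181) and rho = -0.829 (p = 0.0583). Hells had r = -0.80 (exact permutation p = 0.0458) and rho = -0.771 (p = 0.103), and Ncapd2 ran the other way with r = 0.782 (p = 0.0486) and rho = 0.714 (p = 0.136). None passed adjustment over the 36 tests, where the smallest adjusted exact permutation p was 0.325 for r and 0.35 for rho. Without Gfi1+/+ libraries 2 and 3, the farthest from the median of Ibsp, 13 of 36 were below 0 and the median r was 0.282. The relation thus rests on those libraries. Shares over tested genes were not computed for the permutation tests or for r without those libraries. With Ibsp as a covariate, 9 division genes had an unadjusted limma p under 0.05, against 3.46% of tested genes, and 0 passed adjustment.

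**Figure D5:**
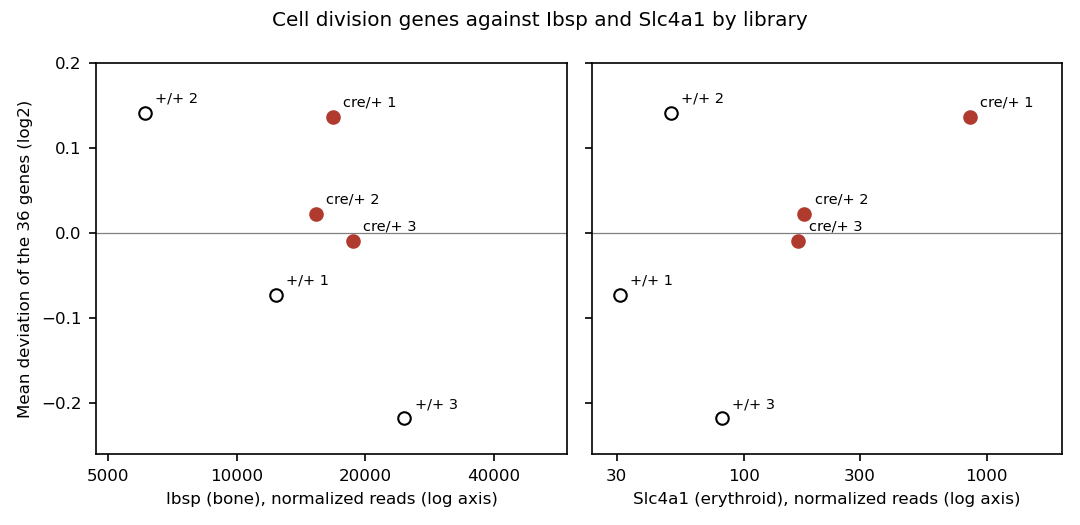
Mean deviation of the 36 division genes (log2, vertical axis) against the level of Ibsp (left) and Slc4a1 (right) in normalized reads on log axes, 1 point per library, open for Gfi1+/+ and filled for Gfi1cre/+. Gfi1+/+ library 3 has the highest Ibsp (24660) and the lowest division genes (-0.22), and Gfi1cre/+ library 1 has the highest Slc4a1 (851).

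Other genes of the same pathways, listed with earlier results of these data known, also had small median differences between genotypes. Of 40 further mitosis genes 32 were tested, and 0 had an unadjusted limma p under 0.05, against 3.04% of tested genes. By sign, 23 were higher in Gfi1cre/+, against 49.9% of tested genes, and the median log2 fold change was 0.06. Single values ran from -0.49 to 0.34. Without overlap of the genotypes, 0 were higher and 2 lower, against 3.45% and 4.07% of tested genes. Of 40 further replication genes 36 were tested, with a median of 0.05 and values from -0.13 to 0.76. Without overlap, 4 of these were higher and 0 lower, against the same shares. At unadjusted limma p 0.05, 3 were higher and 0 lower, against 1.02% and 2.02% of tested genes. Those higher were E2f2, an activator of S phase genes, Cdt1, which loads the helicase, and Uhrf1, which maintains DNA methylation at the fork. E2f2 had 65.4, 84.8 and 94.9 normalized reads in Gfi1+/+ and 188, 128 and 108 in Gfi1cre/+. Gfi1cre/+ library 1 was again the highest and the genotypes did not overlap, with a log2 fold change of 0.76 ± 0.218 (SE, limma, unadjusted p = 0.00699, adjusted p = 0.999). Cdt1 and Uhrf1 both had a log2 fold change of 0.34 (adjusted p = 0.999 each). Gfi1+/+ library 3 was the lowest for 19 of the 32 mitosis genes and 21 of the 36 replication genes, against 22.2% of tested genes. None of the 6 G1 cyclins and kinases and none of the 9 CDK inhibitors and pocket proteins tested had an unadjusted limma p under 0.05, and Cdkn1c and Cdkn1a had log2 fold changes of 0.01 and 0.11.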

How the data were processed

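Cochlear duct polyA RNA was prepared with the TruSeq RNA kit from separate triplicates per genotype and sequenced as paired ends. Per the methods, the authors used TopHat to align reads to mm10, counted unique alignments per gene with HTSeq and kept genes with 40 reads or more. Versions, annotation and strand setting are not given in the sources used here. The deposited values are a normalized signal for every gene and library. The methods name quantile normalization, but quantiles differed between columns, and all values (100%, tolerance 0.006) were whole reads over a factor for the library.

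Genes reaching 40 normalized reads in any library (14455) entered limma 3.58.1 in R 4.3.3 (lmFit, eBayes with a trend) on log2(value + 1), two-sided, with Benjamini-Hochberg adjustment over all genes tested and genotype as the only term. edgeR 4.0.16 and DESeq2 1.42.0 on the recovered reads were alternatives. The scripts were tested on simulated data. Exon lengths were the union of all exons of a gene in the GRCm38 annotation. The members, roles, marker and pathway lists were chosen with earlier results of these data known. Named genes were all members, Gfi1, Slc4a1, Ibsp and, per list, up to 3 genes with the smallest p under 0.05 or else the 2 most abundant. Ddx3y, Cdkn1b and Ccnd1 were added after their values were seen. Correlations with Slc4a1 were planned but not given, because the genotypes separated on it.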

Additional observations from a re-analysis of the deposited data

How the results depend on the processing

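All fits left 0 of the 36 genes past adjusted p 0.05, with each library left out, other pseudocounts, filters and scalings, edgeR and DESeq2 included. The count at unadjusted p 0.05, 3 as reported, was 0 with Slc4a1 and 9 with Ibsp as a covariate and ran from 1 to 8 with a library left out. The Slc4a1 fit is limited, since Slc4a1 separated the genotypes. Genes higher by sign, 24 as reported, came to 9 of the 12 members with a mean of at least 200 (fewer genes tested) and to 18 to 30 with a library left out. Genes without overlap, 4 as reported (7.52% of tested genes), came to 2 at that filter (6.46%) and to 4 to 15 with a library left out, where 13.5% to 34.5% of tested genes did not overlap. The median log2 fold change of 0.08 ran from -0.0040 without Gfi1+/+ replicate 3 to 0.14 without Gfi1+/+ replicate 2. Of the 36 genes, 21 kept their sign without each library and 15 did not. The cause of these changes was not tested. edgeR and DESeq2 each gave 2 genes at unadjusted p 0.05 (Mki67 and Mcm5).

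Deviations from the genotype means of same-numbered libraries correlated across genes at -0.0944, 0.107 and -0.0326. Differently numbered libraries ran from -0.156 to 0.150. These values show no clear pairing by replicate number, and 3 libraries per genotype cannot settle it. With a replicate block, 2 genes (Mki67 and Mcm5) had unadjusted p under 0.05, 0 passed adjustment, and the median of 0.0767, the 24 genes higher and the 4 without overlap stayed. Libraries of 13603908 to 19359753 reads gave 38 to 1104 reads per member. The SD was above the counting SD for 28 of 36 genes within Gfi1+/+ and for 18 within Gfi1cre/+.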

Other observations

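Ccnd1, the G1 cyclin D1 gene, was chosen after its values were seen. It had 1196, 2377 and 1233 normalized reads in Gfi1+/+ libraries 1, 2 and 3 and 1509, 1656 and 1470.0 in Gfi1cre/+ libraries 1, 2 and 3. Gfi1+/+ library 2, the highest for 16 of the 36 division genes, was the highest here as well. Its log2 fold change between genotypes was 0.02 ± 0.223 (SE, limma, adjusted p = 0.999).

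Pcna and Foxm1, lower in Gfi1cre/+ with log2 fold changes of -0.12 and -0.14 over all libraries, had larger differences with a library left out, and neither passed adjustment. Without Gfi1+/+ library 3, in which Pcna was lowest, that of Pcna was -0.30 (limma, adjusted p = 0.133), in a fit in which 16.2% of tested genes had an unadjusted p under 0.05. Without Gfi1+/+ library 1, that of Foxm1 was -0.26 (limma, adjusted p = 0.99996), in a fit in which 2.1% did.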
